A study of Mus musculus with 6 samples.

Results

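The genes described here encode the phagocyte NADPH oxidase, and they are the 6 rows of the deposited RPKM table named Cybb, Cyba, Ncf1, Ncf4, Rac1 and Rac2, out of 53465 gene rows. They were chosen by name, with earlier results of these data known. The table comes from poly(A)-selected RNA of mouse leukaemia cells of the Nras(G12D)/MLL-AF9 line, which carries an activated Nras allele and the fusion of MLL with AF9, and which was kept in medium with serum, SCF, IL-3 and IL-6. The OMP group (3 libraries) had 6 days of 100 µM 4'-O-methylpyridoxine, an analog of vitamin B6, and the Vehicle group (3 libraries) had an equal volume of PBS for the same time. Both groups therefore share the Nras allele, the fusion and the cytokines. Neither the number of clones in the line nor whether replicates were separate cultures is stated in the labels, so every p-value below reflects library-to-library spread that may be only technical. The comparison asks whether OMP changed the levels of oxidase transcripts.

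The oxidase moves electrons from NADPH in the cytosol through flavin and haem to oxygen on the other side of a membrane, which gives superoxide for the killing of microbes. Cybb (the catalytic subunit gp91phox, also called NOX2) and Cyba (its partner p22phox) form the membrane cytochrome. Ncf1 (the organiser p47phox) and Ncf4 (p40phox, which binds a phosphoinositide of the phagosome) wait in the cytosol and join the cytochrome on activation, together with a GTP-bound Rac protein. Loss of the membrane subunits or of p47phox causes chronic granulomatous disease, and full expression of the enzyme is a feature of maturing neutrophils and macrophages.

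Levels of Ncf1, Cyba, Ncf4 and Rac2 mRNA, as shares of library reads, were higher with OMP, while Cybb and Rac1 did not pass the test. Ncf1 rose 1.30-fold, Cyba 1.22-fold, Ncf4 1.19-fold and Rac2 1.17-fold. Cybb had the lowest level of the 6 in both groups, at 9.49 ± 0.200 RPKM (SD, n = 3) with Vehicle and 8.78 ± 1.04 RPKM with OMP. Of the 6 members 4 rose and 0 fell by limma's moderated test (Benjamini-Hochberg adjusted p under 0.05 over 11020 genes), where 15.4% of all genes tested were called higher, 27.5% lower and 43.0% in either direction. The median log2 fold change was 0.24 over the 6 members and -0.09 over all genes tested. In 4 members every OMP library lay above every Vehicle library, while 19.9% of all genes tested showed such a gap upward and 34.6% downward. All 6 members passed the filter on low values, which asked for 3 or more libraries with an RPKM of 1 or more. In bulk RNA a larger share of cells with a transcript and more transcript per cell cannot be told apart. RPKM are relative to the reads of a library, so the total mRNA of a cell was not measured.

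**Figure D1:**
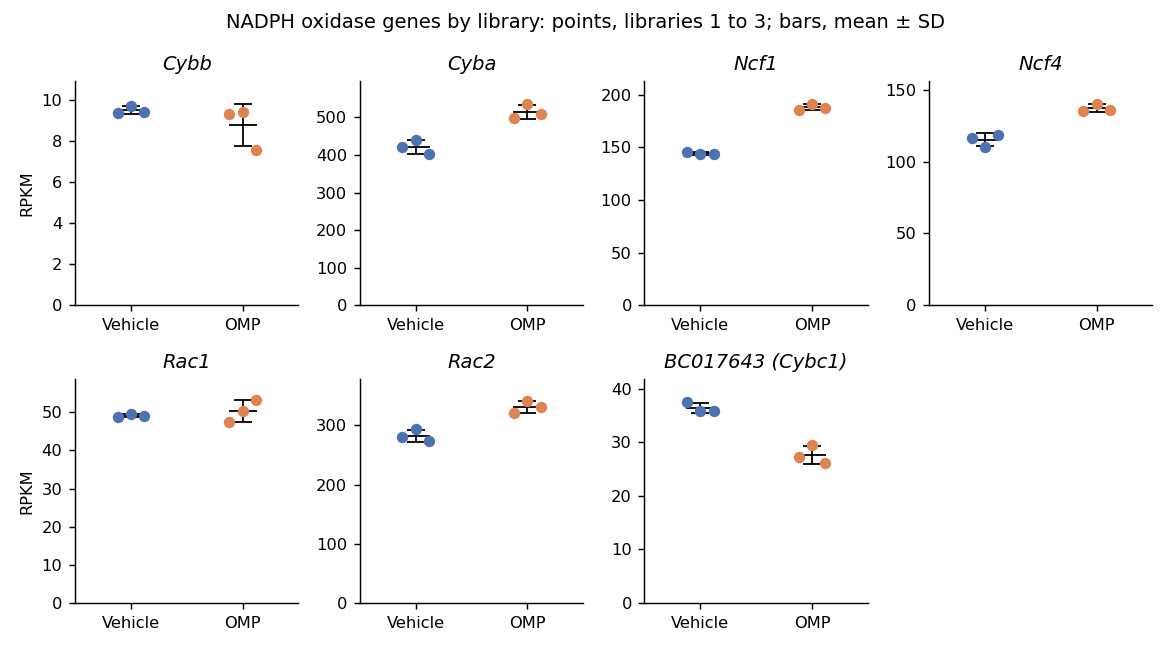
RPKM of the 6 oxidase genes and of BC017643 (the row for Cybc1) in each library, with Vehicle in blue and OMP in orange; points are libraries, bars are the mean ± SD of 3 libraries and each vertical axis starts at 0. Ncf1, Cyba, Ncf4 and Rac2 lie higher in all 3 OMP libraries, BC017643 lies lower, and the groups overlap for Cybb and Rac1.

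Library totals recovered from the RPKM values ran from 3494986 to 4247619 reads. Markers of the line's leukaemic programme were present, with 7 of 8 reaching an RPKM of 1 (Hoxa9, Hoxa10, Meis1, Kit, Myb, Pbx3 and Mef2c), while Eya1 was listed at 0. Their summed level was 374.2 to 382.3 RPKM in Vehicle and 331.0 to 334.2 RPKM in OMP, with 1 called higher and 3 lower. The median log2 fold change of the 7 tested was 0.03, so the lower sum does not describe each of them. All 12 neutrophil markers reached an RPKM of 1, and their summed level was 2673 to 2785 RPKM in Vehicle and 8952 to 9467 RPKM in OMP, with 10 of the 12 called higher and 1 lower. The 10 monocyte and macrophage markers summed to 2673 to 2731 RPKM in Vehicle and 2550 to 2672 RPKM in OMP, nearly all of it from Ly6c2, and Mertk was listed at 0. Of the 6 tested 1 was called higher and 1 lower. Their median log2 fold change was -0.06 as deposited and 0.03 with median-of-ratios scaling, so the direction of this list depends on the scaling. No B cell, T or NK cell or erythroid marker reached an RPKM of 1, and their summed levels stayed at or under 0.959 RPKM in every library. The 5 megakaryocyte markers summed to 1.12 to 1.44 RPKM in Vehicle and 3.81 to 4.49 RPKM in OMP, and Pf4 was listed at 0. These sums are near the floor, with only 1 of the 5 tested, and Ppbp had 0 reads in Vehicle and 9 in OMP. The 6 stromal and endothelial markers summed to 84.1 to 88.3 RPKM in Vehicle and 57.2 to 59.5 RPKM in OMP, and Col1a2 was listed at 0. Only Pdgfrb and Pecam1 of that list reached an RPKM of 1, and of the 2 tested 1 was called lower. The 6 eosinophil markers summed to 2.06 to 3.13 RPKM in Vehicle and 1.33 to 1.55 RPKM in OMP, and only Siglecf reached an RPKM of 1. The 7 mast cell and basophil markers summed to 7.38 to 11.3 RPKM, most of it from Mcpt8. The 7 dendritic cell markers summed to 60.1 to 65.8 RPKM in Vehicle and 57.8 to 63.4 RPKM in OMP, so the groups overlapped. Of the 3 dendritic markers tested 1 was called higher and 2 lower, and Siglech and Clec9a were listed at 0. A listed 0 does not show absence, since 6 of 13 mitochondrial protein genes that every cell uses, among them mt-Co2, were also listed at 0. The summed neutrophil and megakaryocyte markers were thus higher in the libraries where the 4 oxidase genes were higher. The summed leukaemic, stromal and eosinophil markers were lower there, and so, by a narrow margin, was the monocyte and macrophage sum. The part of any of these in the rises of the 4 oxidase genes was not tested.

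Sequences upstream of the members are shown here because Cyba passed the test and Cybb did not, a contrast that was itself not tested. RefSeq windows on GRCm38.p6, from 250 bases before to 50 after the annotated start, matched 3 of the 6 members. Each is printed 5′ to 3′ on the gene's strand. Capitals mark matches to motifs searched on both strands, namely the PU.1 core GAGGAA, the GC box GGGCGG and the IRF repeat (GAAA, any 2 bases, GAAA). The TATA box TATAAA, the C/EBP letters TTGCNNAA and the E2F letters TTTCGCGC were searched as well and had no match in the 3 windows.
Cybb, chrX:9469275-9469574, minus strand: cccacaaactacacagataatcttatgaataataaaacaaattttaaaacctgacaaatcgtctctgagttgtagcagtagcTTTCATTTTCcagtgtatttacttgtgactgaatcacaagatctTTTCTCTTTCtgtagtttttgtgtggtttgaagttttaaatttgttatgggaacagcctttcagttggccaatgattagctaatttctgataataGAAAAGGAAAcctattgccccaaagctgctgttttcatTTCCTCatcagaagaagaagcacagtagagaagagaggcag
Cyba, chr8:122432891-122433190, minus strand: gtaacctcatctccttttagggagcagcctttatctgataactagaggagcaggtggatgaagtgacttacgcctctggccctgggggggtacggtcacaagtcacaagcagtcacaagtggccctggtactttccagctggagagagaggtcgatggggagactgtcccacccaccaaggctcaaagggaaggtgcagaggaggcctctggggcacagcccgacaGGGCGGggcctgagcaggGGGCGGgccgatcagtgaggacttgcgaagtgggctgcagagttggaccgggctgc
Ncf1, chr5:134229576-134229875, minus strand: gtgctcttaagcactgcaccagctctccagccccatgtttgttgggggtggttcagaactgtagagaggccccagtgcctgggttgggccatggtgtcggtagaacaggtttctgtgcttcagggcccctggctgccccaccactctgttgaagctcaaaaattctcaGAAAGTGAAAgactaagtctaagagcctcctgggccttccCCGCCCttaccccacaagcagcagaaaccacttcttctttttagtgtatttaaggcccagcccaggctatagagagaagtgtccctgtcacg
The Cybb window held 3 matches to the IRF repeat, which start 168, 124 and 29 bases before the RefSeq start, and 1 match to the PU.1 core that starts at base 10 after it. That window ends at 9469574, inside the GENCODE span of Cybb (9435252 to 9487771), so it is not at the outermost annotated start. The Ncf1 window held 1 IRF repeat, 82 bases before the start, and 1 GC box at 42 bases. The Cyba window held 2 GC boxes, at 24 and 6 bases before the start, and no match to the IRF repeat or the PU.1 core. None of these matches overlapped another. Over all 32851 windows of the table, 3.44% held the IRF repeat, 28.3% the PU.1 core, 35.7% the GC box, 13.6% the TATA box, 10.8% the C/EBP letters and 0.323% the E2F letters. The base composition differed as well, with 35.3% G and C in the Cybb window, 54.0% in that of Ncf1 and 60.7% in that of Cyba. A match is a description of letters and not a known site of binding.

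Of the membrane subunits, Cyba rose and Cybb did not pass the test. Cyba (ENSMUSG00000006519, GRCm38 chromosome 8, 122424776 to 122432930, minus strand) stood at 420.0, 440.2 and 401.6 RPKM in the Vehicle libraries and at 497.6, 535.8 and 509.8 RPKM in the OMP libraries. The lowest OMP library was above the highest Vehicle library. The means were 420.6 ± 19.3 and 514.4 ± 19.5 RPKM (SD, n = 3 each), and the log2 fold change was 0.29 ± 0.04 SE (limma adjusted p = 0.000972).

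Cybb (ENSMUSG00000015340, chromosome X, 9435252 to 9487771, minus strand) stood at 9.35, 9.72 and 9.41 RPKM in the Vehicle libraries and at 9.33, 9.42 and 7.58 RPKM in the OMP libraries. The groups overlapped, with OMP replicate 3 below all others and the other OMP libraries close to Vehicle replicates 1 and 3. The log2 fold change was -0.11 with a 95% interval from -0.34 to 0.11 (limma adjusted p = 0.390), and without OMP replicate 3 it was -0.02 (limma adjusted p = 0.894). The interval leaves room for a level between 0.790 and 1.08 times that of Vehicle. Cybb rested on 545 reads over the Vehicle libraries and 448 over the OMP libraries, against 3777 and 4121 for Cyba, so its value is the least precise of the 6. Its direction was upward, without passing the test, under quantile normalization (log2 fold change 0.0037) and after correction for GC content and length (0.03).

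The membrane subunits pair at the protein level, so their mRNA ratio within each library is given, which does not depend on the scaling of libraries. Cyba mRNA exceeded Cybb mRNA per length by 44.9, 45.3 and 42.7 times in the Vehicle libraries and by 53.3, 56.9 and 67.3 times in the OMP libraries, a difference given without a test. Every OMP library had a higher ratio than any Vehicle library, with the highest in replicate 3, where Cybb was lowest. These ratios depend on the gene lengths behind the RPKM values, 744 bp for Cyba and 4752 bp for Cybb. With the length of all annotated exons together the mean ratio was 38.8 in Vehicle and 51.8 in OMP.

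**Figure D2:**
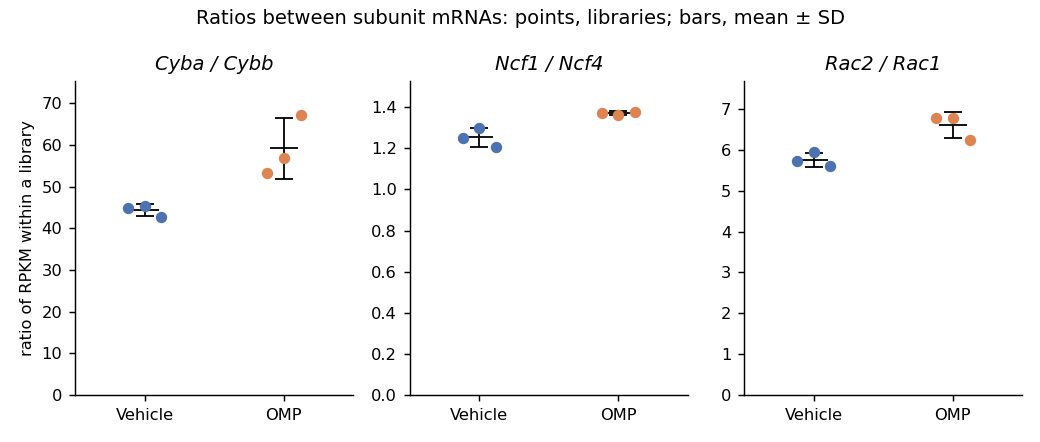
Ratio of RPKM within each library for Cyba to Cybb, Ncf1 to Ncf4 and Rac2 to Rac1, Vehicle in blue and OMP in orange; points are libraries and bars the mean ± SD of 3 libraries, on axes that start at 0. All 3 ratios lie higher in every OMP library than in any Vehicle library.

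BC017643 (ENSMUSG00000039294, chromosome 11, 121222588 to 121229322) is the row whose identifier GENCODE M21 names Cybc1, the chaperone also known as Eros that the cytochrome needs to reach stable protein levels. It moved against Cyba, from 37.5, 35.9 and 35.9 RPKM with Vehicle to 27.3, 29.5 and 26.1 RPKM with OMP. The highest OMP library was below the lowest Vehicle library. It was 1.31-fold lower (limma adjusted p = 0.000933), at -0.39 ± 0.06 SE on the log2 scale. The gene overlaps Hexdc on the other strand, and 0.802% of the 50-base words of its transcript also occur in transcripts of Hexdc.

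The cytosolic members rose, and Ncf1 had the largest fold of the 6 members. Ncf1 (ENSMUSG00000015950, chromosome 5, 134220053 to 134229625, minus strand) stood at 145.9, 143.7 and 143.7 RPKM with Vehicle and 185.8, 191.3 and 187.8 RPKM with OMP. The distance between the groups was many times the spread within either, 144.4 ± 1.30 against 188.3 ± 2.79 RPKM (SD, n = 3 each). The log2 fold change was 0.38 ± 0.03 SE (limma adjusted p = 5.27e-05). The gene overlaps Gtf2ird2 on the other strand, and 8.15% of the 50-base words of its transcript also occur in transcripts of Gtf2ird2 or Zhx3. The strand setting of the counting is not given, so reads in that stretch cannot be told apart.

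Ncf4 (ENSMUSG00000071715, chromosome 15, 78244801 to 78262580, plus strand) had 116.6, 110.5 and 119.0 RPKM with Vehicle and 135.2, 140.6 and 136.2 RPKM with OMP. The groups did not overlap, and the log2 fold change was 0.25 ± 0.04 SE (limma adjusted p = 0.00149). No 50-base word of its transcript occurs in another gene. Within libraries the ratio of Ncf1 to Ncf4 was 1.25, 1.30 and 1.21 with Vehicle and 1.37, 1.36 and 1.38 with OMP.

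The Rac genes encode the small GTPases that complete the active enzyme, Rac1 in most cell types and Rac2 mainly in blood cells, where it is the usual partner in neutrophils. Rac2 (ENSMUSG00000033220, chromosome 15, 78559167 to 78572783, minus strand) had 280.2, 294.2 and 274.4 RPKM with Vehicle and 321.7, 341.1 and 331.4 RPKM with OMP. Its groups did not overlap, and the log2 fold change was 0.23 ± 0.04 SE (limma adjusted p = 0.0019). Rac1 (ENSMUSG00000001847, chromosome 5, 143503634 to 143528036, minus strand) had 48.9, 49.5 and 49.0 RPKM with Vehicle and 47.4, 50.3 and 53.2 RPKM with OMP. Its OMP libraries lay on both sides of the Vehicle libraries. The log2 fold change of Rac1 was 0.03 with a 95% interval from -0.09 to 0.15 (limma adjusted p = 0.656), and it was -0.05 with TPM rescaling and -0.01 without OMP replicate 3. Reads of Rac1 carry a further limit, because 55.0% of its 50-base words also lie in transcripts of Daglb, which overlaps it on the other strand.

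The ratio of Rac2 to Rac1 mRNA was 5.73, 5.94 and 5.60 in the Vehicle libraries and 6.79, 6.78 and 6.23 in the OMP libraries. All OMP libraries were above all Vehicle libraries, with a mean difference of 0.20 on the log2 scale. The exact two-sided permutation test over libraries gave p = 0.1, which is the smallest p that 3 against 3 libraries allow. A difference between the changes of the 2 GTPases is thus not shown at 0.05 by this test.

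**Figure D3:**
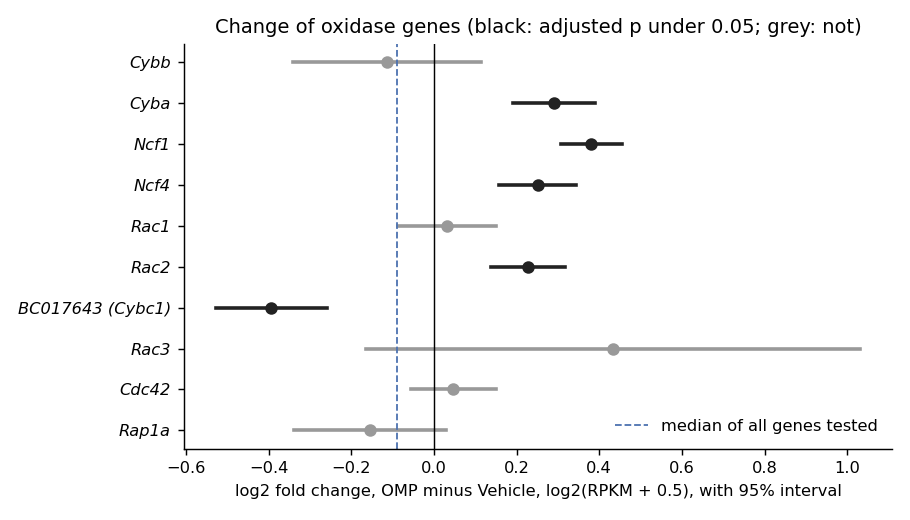
Log2 fold change (OMP minus Vehicle, on log2(RPKM + 0.5)) with its 95% interval from limma for the 6 members, BC017643, Rac3, Cdc42 and Rap1a; black marks an adjusted p under 0.05, grey the others, and the dashed line the median of all genes tested, -0.09. Ncf1, Cyba, Ncf4 and Rac2 lie right of 0, BC017643 lies left of 0, and the intervals of the other 5 genes include 0.

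Other small GTPases tied to the enzyme did not pass the test as deposited. Rac3, the remaining Rac paralog, had 26 reads over the Vehicle and 34 over the OMP libraries, at 2.01 ± 0.582 and 2.91 ± 0.970 RPKM (limma adjusted p = 0.214). Cdc42, a close relative of Rac, stood at 293.4 ± 14.5 and 303.0 ± 11.3 RPKM (limma adjusted p = 0.435), and it passed upward with median-of-ratios scaling (log2 fold change 0.14, limma adjusted p = 0.0391) and after correction for GC content and length (0.18, limma adjusted p = 0.0118). Rap1a, a GTPase that copurifies with the cytochrome, stood at 44.5 ± 1.35 and 40.1 ± 4.65 RPKM (limma adjusted p = 0.156), and it passed downward in 2 of 17 alternatives. Of the 50-base words of its transcript 9.46% also occur in Gm9392 or Rap1a-ps2, and for Cdc42 3.11% occur in other genes.

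The order of the levels was the same in all 6 libraries. Per length, Cyba was highest, followed by Rac2, Ncf1, Ncf4, Rac1 and Cybb, and no neighbours in this order overlapped within a group. Cybb lay at percentile 40.2 of all genes tested with Vehicle, Rac1 at 84.1 and each of the others at 94.3 or above. With the length of all annotated exons in place of the length behind the RPKM values, the order did not change. The other NADPH oxidases were at or near the floor, with 0 reads in all libraries for Nox4, Duox1, Duox2, Duoxa1, Duoxa2 and Noxa1. Nox1 had 1 read in each group, Nox3 had 0 and 1, and Noxo1, an organiser related to p47phox, had 2 and 10 reads, so none of the 9 was tested.

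Lists of genes related to the oxidase follow, and each count stands against 15.4% higher and 27.5% lower over all genes tested. Regulators that load or unload Rac included calls in both directions. Of 16 listed genes 14 were tested, of which 5 rose and 4 fell, with a median log2 fold change of 0.12 (3 and 4 with TPM rescaling, 6 and 2 with median-of-ratios scaling). The exchange factor gene Dock2, the main Rac activator of leukocytes, rose 1.24-fold from 56.4 ± 0.200 to 70.2 ± 4.2 RPKM (limma adjusted p = 0.00155), and Dock5 rose 1.36-fold. Prex1, an exchange factor that answers to phosphoinositides and G protein subunits, was 1.40-fold lower (limma adjusted p = 0.00181), and Tiam1 was 1.24-fold lower. Arhgdib, an inhibitor that holds small GTPases in the cytosol, rose 1.09-fold (limma adjusted p = 0.0189), a call lost in 5 of 17 alternatives, and Vav3, an exchange factor, was 1.20-fold lower (limma adjusted p = 0.0262), a call lost in 7 of 17. Dock5, Tiam1, Arhgdib and Vav3 were named after their values were seen, as were, below, G6pdx, Nadk2, Taldo1, Gpx1, Prdx4, Txn1, Csf2ra, Fcer1g, Tlr4, Tnfrsf1a, Mapk14, Pik3cg, Gfi1, Runx1 and Nfe2l2.

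Of 26 listed kinases and lipid enzymes that prime or activate the oxidase 23 were tested, of which 6 rose and 5 fell, a share called near the 43.0% of all genes tested, with a median of 0.02 (4 and 7 with TPM rescaling, 10 and 5 with median-of-ratios scaling). Prkcb, a protein kinase C that phosphorylates p47phox, rose 1.45-fold from 24.0 ± 1.43 to 35.2 ± 2.40 RPKM (limma adjusted p = 0.00045). Pla2g4a, a phospholipase that releases arachidonate, rose 1.39-fold from 54.8 ± 0.480 to 76.4 ± 2.59 RPKM (limma adjusted p = 6.63e-05). Mapk14 (p38, a priming kinase) and Pik3cg (a phosphoinositide kinase downstream of chemoattractant receptors) were 1.31-fold lower each.

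Most receptors that trigger the oxidase rose. Of 18 listed genes 16 were tested, of which 10 rose and 2 fell, with a median of 0.38 (9 and 3 with TPM rescaling, 12 and 1 with median-of-ratios scaling). Fcgr1, the high-affinity IgG receptor, rose from 2.33 ± 0.224 to 6.67 ± 0.560 RPKM (2.54-fold, limma adjusted p = 0.000103), and C5ar1, the complement C5a receptor, from 4.93 ± 0.857 to 12.3 ± 0.871 RPKM (2.38-fold, limma adjusted p = 0.000147). Csf2ra, Tlr4 and Fcer1g rose 1.64-fold, 1.57-fold and 1.28-fold. Tnfrsf1a, a TNF receptor, was 1.34-fold lower. The formyl peptide receptors Fpr1 and Fpr2 were too low to test, with 2 and 1 reads in Vehicle and 11 each in OMP.

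**Figure D4:**
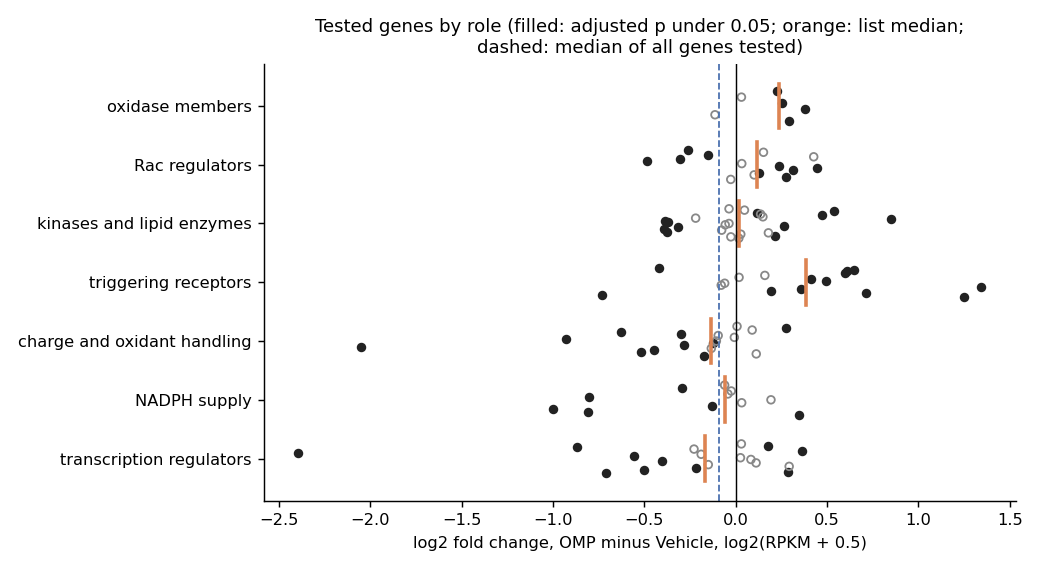
Log2 fold change (OMP minus Vehicle, on log2(RPKM + 0.5)) of each tested gene in the oxidase group and 6 lists of related genes; filled points have an adjusted p under 0.05, orange bars are list medians and the dashed line is the median of all genes tested. The oxidase members (median 0.24) and the triggering receptors (0.38) have the highest medians, and the transcription regulators (-0.17) the lowest.

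Calls downward outnumbered calls upward among genes that supply NADPH or handle the products of the enzyme, as they did over all genes tested (27.5% lower, 15.4% higher). Of 12 listed NADPH genes 11 were tested, of which 1 rose and 5 fell (1 and 7 with TPM rescaling, 2 and 4 with median-of-ratios scaling), and the median of -0.06 became 0.03 with the latter. Idh2 and Idh1, the mitochondrial and cytosolic NADP-dependent isocitrate dehydrogenases, were 2.0-fold and 1.75-fold lower, Idh2 from 149.4 ± 4.03 to 74.4 ± 0.539 RPKM (limma adjusted p = 6.25e-07) and Idh1 from 38.5 ± 1.68 to 21.7 ± 1.40 RPKM (limma adjusted p = 3.68e-05). Nadk2 (mitochondrial NAD kinase) and Taldo1 (transaldolase) were 1.75-fold and 1.22-fold lower. G6pdx, the entry enzyme of the pentose phosphate pathway, was the 1 that rose, from 113.7 ± 1.61 to 144.6 ± 3.51 RPKM.

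Of 18 genes for charge balance and for handling of superoxide and peroxide 17 were tested, of which 1 rose and 9 fell, with a median of -0.13 (1 and 12 with TPM rescaling, 1 and 6 with median-of-ratios scaling). Sod1, the cytosolic superoxide dismutase, fell from 251.2 ± 7.33 to 162.4 ± 1.16 RPKM (1.54-fold lower, limma adjusted p = 5.32e-06). Mpo, myeloperoxidase, which turns the peroxide into hypochlorous acid, was 4.14-fold lower at 2.63 ± 0.563 RPKM (limma adjusted p = 2.15e-05). Gpx1 and Prdx4, which reduce peroxides, were 1.43-fold and 1.90-fold lower, and Txn1 rose 1.21-fold. Hvcn1, the proton channel that balances the charge moved by the oxidase, was low at 2.73 ± 0.371 and 2.5 ± 0.790 RPKM (limma adjusted p = 0.651).

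Of 19 listed transcription regulators of myeloid genes 18 were tested, of which 3 rose and 7 fell, where all genes tested had 15.4% higher and 27.5% lower (1 and 10 with TPM rescaling, 5 and 6 with median-of-ratios scaling). Spi1, which encodes PU.1, had 113.9, 113.4 and 112.9 RPKM with Vehicle and 130.5, 128.7 and 126.1 RPKM with OMP, a 1.13-fold rise (limma adjusted p = 0.00347) that was lost with TPM rescaling (0.0536). Irf8, an interferon regulatory factor of myeloid cells, had 39.1, 36.4 and 40.4 RPKM with Vehicle and 7.14, 7.61 and 6.14 RPKM with OMP (5.26-fold lower, limma adjusted p = 5.86e-07). Cebpa was 1.63-fold lower (44.4 ± 1.70 to 27.0 ± 0.940 RPKM, limma adjusted p = 2.7e-05). Cebpe, a factor of late granulocyte maturation, was 1.16-fold lower (103.0 ± 2.95 to 89.0 ± 8.77 RPKM, limma adjusted p = 0.0320), a call lost in 8 of 17 alternatives. Runx1 and Gfi1 were 1.83-fold and 1.32-fold lower, and Nfe2l2 rose 1.29-fold. Whether any of these factors bears on the oxidase genes was not tested.

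The genes most like each member were found by the root mean square difference of their log2 values over the 6 libraries, each taken relative to its own Vehicle mean, among 7845 other genes with a mean RPKM of at least 5. Nearest to Ncf1 was Coro1a, a leukocyte actin regulator known to bind oxidase subunits, at 0.018, with 417.9 ± 2.81 RPKM in Vehicle and 552.8 ± 9.5 RPKM in OMP, followed by Lonp2 (0.018) and Psmd6 (0.019). Nearest to Cyba were H13 (0.0098), Plpp5 and Thrap3, to Ncf4 Virma (0.017), Secisbp2 and Zbtb7a, and to Rac2 Unc119 (0.016), Atp6v1h and Tmem248. Nearest to Rac1 were Kpna6 (0.019), Glyr1 and Bag6, and to Cybb Mrpl27 (0.024), Ythdf1 and Sptssa. No other member was among the 3 nearest of any member, which with 7845 candidates does not show that the members moved apart.

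The calls of the 4 risen members held in all 17 alternatives run. Their log2 fold changes ranged from 0.30 to 0.47 for Ncf1, from 0.21 to 0.38 for Cyba, from 0.17 to 0.34 for Ncf4 and from 0.13 to 0.32 for Rac2. Cybb and Rac1 passed in none of them. Scaling sets the number of genes called in each direction: 1702 higher and 3033 lower as deposited, 1215 and 3973 with TPM rescaling, 2370 and 2237 with median-of-ratios scaling, 2244 and 2321 with quantile normalization, and 2489 and 2189 after correction for GC content and length. The counts of 4 higher and 0 lower members were the same under each of these.

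**Figure D5:**
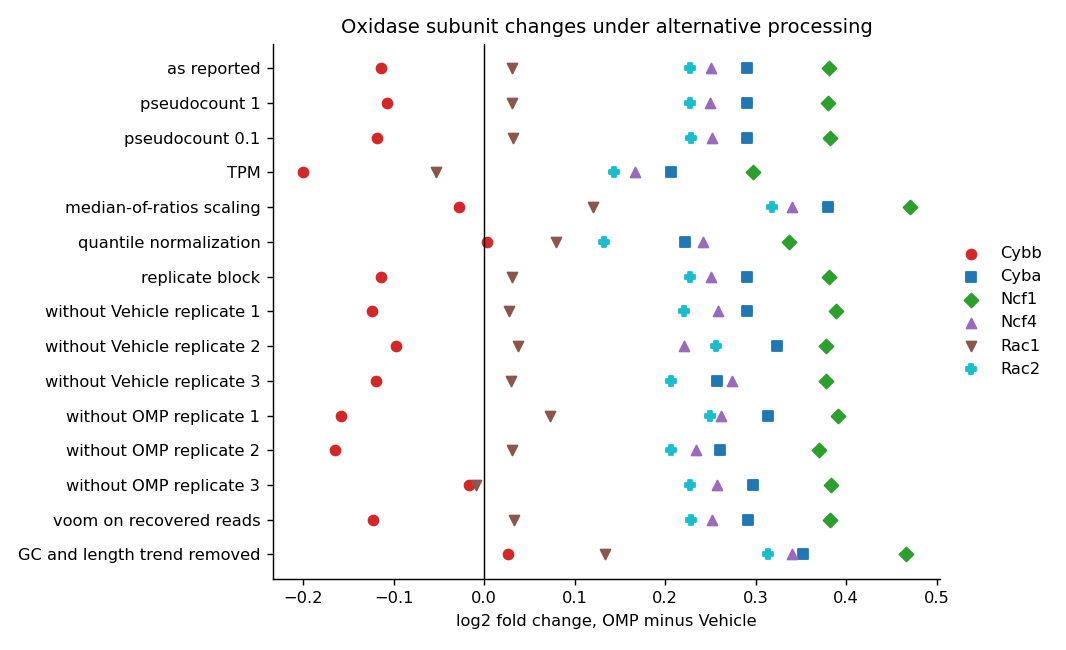
Log2 fold change (OMP minus Vehicle) of the 6 members, 1 symbol and colour per gene, as reported and under 14 other settings listed on the vertical axis. Ncf1, Cyba, Ncf4 and Rac2 stay right of 0 in each setting, while Cybb and Rac1 lie near 0 and cross it in some.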

How the data were processed

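The deposited values are RPKM, reads scaled by gene length and library size, made by the authors. The submitters' processing notes name STAR 2.5.3a, Trimmomatic 0.36, FastQC 0.11.5, featureCounts 1.6.3 and mm10 (GRCm38). For annotation release, strand setting and filters the entry is: not given in the sources used here. Columns were matched to libraries by title.

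Library totals were estimated first, from RPKM steps of genes with 1 annotated transcript length. With these totals RPKM corresponded to whole reads for 100% of 19970 genes above 0 (relative tolerance 1e-06). The length equalled a GENCODE M21 transcript or exon union for 94.6% of genes. For the rest, Rac2 among them (3036 bp), the smallest length that gave whole reads was taken. That free choice of length makes the 100% a weak check of the totals. Reads are without molecular identifiers, so they show counting error only. Genes with RPKM of at least 1 in at least 3 libraries were tested with limma 3.58.1 in R 4.3.3 on log2(RPKM + 0.5), without covariates, two-sided, with a mean trend in the prior. P-values were adjusted by Benjamini-Hochberg over 11020 genes, with a threshold of 0.05. Folds come from that scale and understate changes of low genes. The procedure was run on simulated data with far fewer changed genes than were called here, so that run does not check the scaling. Libraries of 1 group differed by more than sampling noise (chi-square per degree of freedom 1.19 to 1.62). Members and lists were chosen with earlier results of these data known. Named genes were the members, other subunits, the 2 smallest p per list, Spi1, Irf8, Cebpe, Hvcn1 and Mpo and the 3 nearest genes per member, and other genes chosen after their values were seen are named as such. Alternatives were other pseudocounts, filters, scalings, a robust prior, a replicate block and leaving out each library. Limma-voom on recovered reads and the GC and length correction were added after seeing the data. Matplotlib 3.10.9 drew the figures. A few related genes are not reported here.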

Additional observations from a re-analysis of the deposited data

How the results depend on the processing

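The 17 alternatives run kept the direction and call of Ncf1, Cyba, Ncf4 and Rac2. Leaving out each library in turn gave log2 fold changes of 0.37 to 0.39 for Ncf1, 0.26 to 0.32 for Cyba, 0.22 to 0.27 for Ncf4 and 0.21 to 0.26 for Rac2, -0.16 to -0.02 for Cybb and -0.0094 to 0.0729 for Rac1, and 3968 to 4241 genes called. Without a call in either case, Cybb changed sign with quantile normalization (0.0037) and with GC content and length removed (0.0268), and Rac1 with TPM rescaling (-0.053) and without OMP replicate 3 (-0.0094). Over all 11020 genes 4735 were called, 3070 at an adjusted p under 0.01, by construction of the threshold, and 5335 with voom.

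Among 61 other named genes and 1034 values, 993 kept direction and call, 24 lost the call and 7 gained it. Values without a call changed sign for Cdc42 (-0.038 with TPM, -0.058 with quantile normalization), Kpna6 (-0.035), Glyr1 (-0.038) and Bag6 (-0.063) with TPM, Hvcn1 (0.035), Sptssa (0.0086) and Bag6 (-0.0070) without OMP replicate 3 (the other extremes over left-out libraries were -0.333, -0.148 and 0.057), and Rap1a (0.0079) and Sptssa (0.035) with GC content and length removed. The causes were not tested. Same-numbered libraries did not deviate together (correlations of -0.0024, 0.015 and 0.0069). Spread within a group exceeded counting noise but was largely made of it (chi-square per degree of freedom 1.19 to 1.62). The correlations therefore cannot decide whether same-numbered libraries shared a culture or day. With the replicate block 4445 genes were called, the 4 risen members kept their calls (limma adjusted p from 0.000689 for Ncf1 to 0.00634 for Ncf4), and the log2 ratio of Rac2 to Rac1 differed by 0.20 (exact permutation p = 0.25, the smallest that 3 pairs allow). Among the 6 members Cybb had the fewest reads. Of the other tested genes named above, with the cell type and leukaemic markers left aside, Rac3, Hvcn1, Fcgr1, C5ar1, Mpo, Prdx4, Runx1, Nadk2 and Mrpl27 had fewer still over all libraries.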
